A study of Homo sapiens with 48 samples.

Results

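The genes COLCA1, CNTNAP5, GHRHR, AQP4, AMZ1 and PLEKHH2 were among those that differed most between androgen-depleted and complete serum in 22Rv1 prostate cancer cells or in a luciferase-marked subline. They are 6 of the 61817 entries of a gene count table, and all 6 were among the 20009 genes that passed a filter on low counts. They were picked on the difference between charcoal-stripped serum (CSS) and fetal bovine serum (FBS) under vehicle, so that difference is given below as a description, with no test. The tests given here concern the same genes under the Mediator kinase inhibitor SNX631, between the sublines, and in kinase-modified lines that had no part in the choice.

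The 22Rv1 line is a model of castration-resistant prostate cancer. RNA was sequenced in 48 libraries that form 16 groups of 3 biological replicates, from 6 lines. The parental cells are called Rv1-WT, and Rv1-Luc cells were derived from them with a lentivirus for firefly luciferase. Both were grown in medium with 10% FBS or 10% CSS. The dKO-8, dKO-8M, dKO-19 and dKO-19M lines were grown in FBS and share a CRISPR/Cas9 knockout of the genes for CDK8 and CDK19, the paralogous kinases of the Mediator complex. A lentivirus returned wild-type CDK8 to dKO-8 and wild-type CDK19 to dKO-19, whereas dKO-8M and dKO-19M received a kinase-inactive mutant of the respective kinase. Per the paper, dKO-8 and dKO-8M were made from knockout cells that already carried an empty lentiviral vector. The dKO-19 and dKO-19M lines were made from the knockout cells directly, so the CDK8 and CDK19 lines also differ by this step. Every line and medium was given 0.1% DMSO as vehicle or 500 nM SNX631 for 72 hours. Cells for the CSS groups had first spent a passage in CSS and were seeded at a higher density than cells for the FBS groups, so serum, passage and density cannot be told apart. Each genotype is represented by a single line, so the form of the kinase and the history of the line cannot be told apart. Whether any line is clonal is not given in the sources used here.

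Androgens are steroid hormones that change transcription of genes in prostate epithelium, and CDK8 and CDK19 in the Mediator complex change how enhancer-bound factors reach RNA polymerase II. Charcoal removes androgens from serum along with other lipophilic molecules, so growth in CSS is the usual cell culture stand-in for androgen deprivation. None of the 6 genes is a textbook androgen-induced gene such as the kallikreins. They comprise a long noncoding RNA (COLCA1), a hormone receptor (GHRHR), a water channel (AQP4), an adhesion protein (CNTNAP5), a peptidase (AMZ1) and a cytoskeletal protein (PLEKHH2).

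Library totals ran from 13.2 to 18.2 M counts in Rv1-WT and from 19.3 to 31.5 M in the other lines, so low levels rest on fewer counts in Rv1-WT. All 9 luminal prostate markers checked, among them KRT8, averaged over 1 CPM across the 48 libraries. Of these, KLK3 was lower in the lines with an inactive kinase. Its group means there were 0.539 and 0.852 CPM in dKO-8M and 0.506 and 0.453 CPM in dKO-19M, under vehicle and SNX631. CDK8 averaged 68.6 CPM in dKO-8 and 122.6 CPM in dKO-8M under vehicle against 26.8 CPM in Rv1-WT in FBS, and CDK19 averaged 510 CPM in dKO-19 and 332 CPM in dKO-19M against 149 CPM, as the labels say. In dKO-19 the CDK8 level, 27.7 CPM, was close to that of Rv1-WT, so the counts do not show the knockout itself. These are RNA levels. By Western blot the paper reports less CDK8 protein in dKO-8 than in parental cells, but far more CDK19 protein in dKO-19 and dKO-19M. The vehicle libraries dKO-19M replicate 1 and Rv1-Luc FBS replicate 1 stood apart from the other replicates of their groups, with chi-square values of up to 17.7 and 9.69 per degree of freedom, and calls that rest on them, with the vehicle differences between media in Rv1-Luc, are also given without them.

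The promoters of COLCA1 and, for contrast, of GHRHR and PLEKHH2 are shown because under vehicle COLCA1 and GHRHR were lower in CSS in both sublines and PLEKHH2 was higher in Rv1-WT. Each runs from 250 bases before to 50 bases after an annotated start (RefSeq, GRCh38.p14), 5′ to 3′ on the strand of the gene, and capitals mark AGAACA, an arm of the palindromic element that steroid receptors such as the glucocorticoid receptor bind.
COLCA1 start 1, chr11:111304999-111305298 (minus strand): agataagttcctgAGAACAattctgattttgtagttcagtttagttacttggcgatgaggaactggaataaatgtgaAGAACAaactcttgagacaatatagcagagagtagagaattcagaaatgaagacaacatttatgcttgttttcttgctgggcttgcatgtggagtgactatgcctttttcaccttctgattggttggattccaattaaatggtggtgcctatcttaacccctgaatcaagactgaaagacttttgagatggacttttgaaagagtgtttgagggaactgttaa
COLCA1 start 2, chr11:111300183-111300482 (minus strand): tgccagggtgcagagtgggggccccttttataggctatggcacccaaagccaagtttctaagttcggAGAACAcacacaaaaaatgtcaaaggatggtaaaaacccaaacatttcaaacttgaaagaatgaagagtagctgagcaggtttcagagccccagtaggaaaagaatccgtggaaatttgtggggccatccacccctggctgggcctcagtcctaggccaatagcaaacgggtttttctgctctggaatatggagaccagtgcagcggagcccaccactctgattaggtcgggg
GHRHR, chr7:30963703-30964002 (plus strand): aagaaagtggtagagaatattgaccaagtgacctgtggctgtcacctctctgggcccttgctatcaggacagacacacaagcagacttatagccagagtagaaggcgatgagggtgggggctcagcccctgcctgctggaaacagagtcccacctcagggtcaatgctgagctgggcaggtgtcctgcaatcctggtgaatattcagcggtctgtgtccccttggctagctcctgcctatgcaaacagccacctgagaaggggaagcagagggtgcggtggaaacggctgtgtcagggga
PLEKHH2, chr2:43637010-43637309 (plus strand): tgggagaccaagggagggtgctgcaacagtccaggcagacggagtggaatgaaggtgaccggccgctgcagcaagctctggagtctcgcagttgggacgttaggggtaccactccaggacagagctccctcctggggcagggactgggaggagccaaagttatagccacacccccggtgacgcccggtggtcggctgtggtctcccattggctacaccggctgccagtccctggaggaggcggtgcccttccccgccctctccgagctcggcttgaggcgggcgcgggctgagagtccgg

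COLCA1 has 5 listed starts. The 2 shown are those with the letters AGAACA, and starts 3, 4 and 5 do not hold them. These letters, searched on both strands, occur at -237 and -173 bases from the first listed start of COLCA1 and at -183 bases from the second. They occur in 2 of the 13 promoters listed for the 6 genes, both of COLCA1, and in 14.8% of 35093 RefSeq promoters of the same length. The full element, AGAACA followed by any 3 bases and TGTTCT, is in 0 of the 13 and in 0.00285% of all promoters. The letters TATAAA are in 2 of the 13 against 11.5% of all promoters, and CCAAT in 7 of the 13 against 34.6%. Some promoters listed for COLCA1 and for AQP4 overlap, so a CCAAT site can be counted more than once. By gene, TATAAA is in 2 of the 6 and CCAAT in 4 of the 6. A match describes these letters only.

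On the contrast that chose them, counting called genes that average 1 CPM or more and carry a symbol, COLCA1 (log2 fold change -2.77 ± 0.095 SE), CNTNAP5 (-2.72 ± 0.28) and GHRHR (-2.24 ± 0.35) held the lowest 3 ranks of CSS against FBS in Rv1-Luc under vehicle, where 1.49% of the genes tested were called (0.68% higher). AQP4 (1.82 ± 0.35) held the highest rank and AMZ1 (1.59 ± 0.22) the third highest. The call here only set which genes were ranked. It rests on the values that chose the 6, so the ranks describe the choice and are no test of these genes. Other genes near these ranks were IGHM, an immunoglobulin heavy chain gene, at -1.98 ± 0.30, REG4, a secreted lectin, at 1.61 ± 0.27, and GRM3, a glutamate receptor, at 1.54 ± 0.27. IGHM and GRM3 lay just outside, while REG4 ranked above AMZ1 without being among the 6. PLEKHH2 came from Rv1-WT, where 10.9% of genes were called (6.09% higher), as were 8.65% for the difference between the lines, and it was the third highest at 3.12 ± 0.26. AREG, an EGF-family ligand, at 3.58 ± 0.24 and CYP1A1, a target of the aryl hydrocarbon receptor, at 3.17 ± 0.28 were higher there and FIBIN at 3.01 ± 0.22 was next. In Rv1-WT the lowest rank went to RFX6 at -3.28 ± 0.98, and COLCA1, at rank 10, was at -2.18 ± 0.10. By rank the 6 genes represent the extremes of Rv1-Luc more than those of Rv1-WT. Without Rv1-Luc replicate 1 in FBS under vehicle, which stood apart, the values in Rv1-Luc were -2.71 for COLCA1, -2.88 for CNTNAP5, -1.91 for GHRHR, 1.79 for AQP4, 1.23 for AMZ1 and 1.09 for PLEKHH2.

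**Figure D1:**
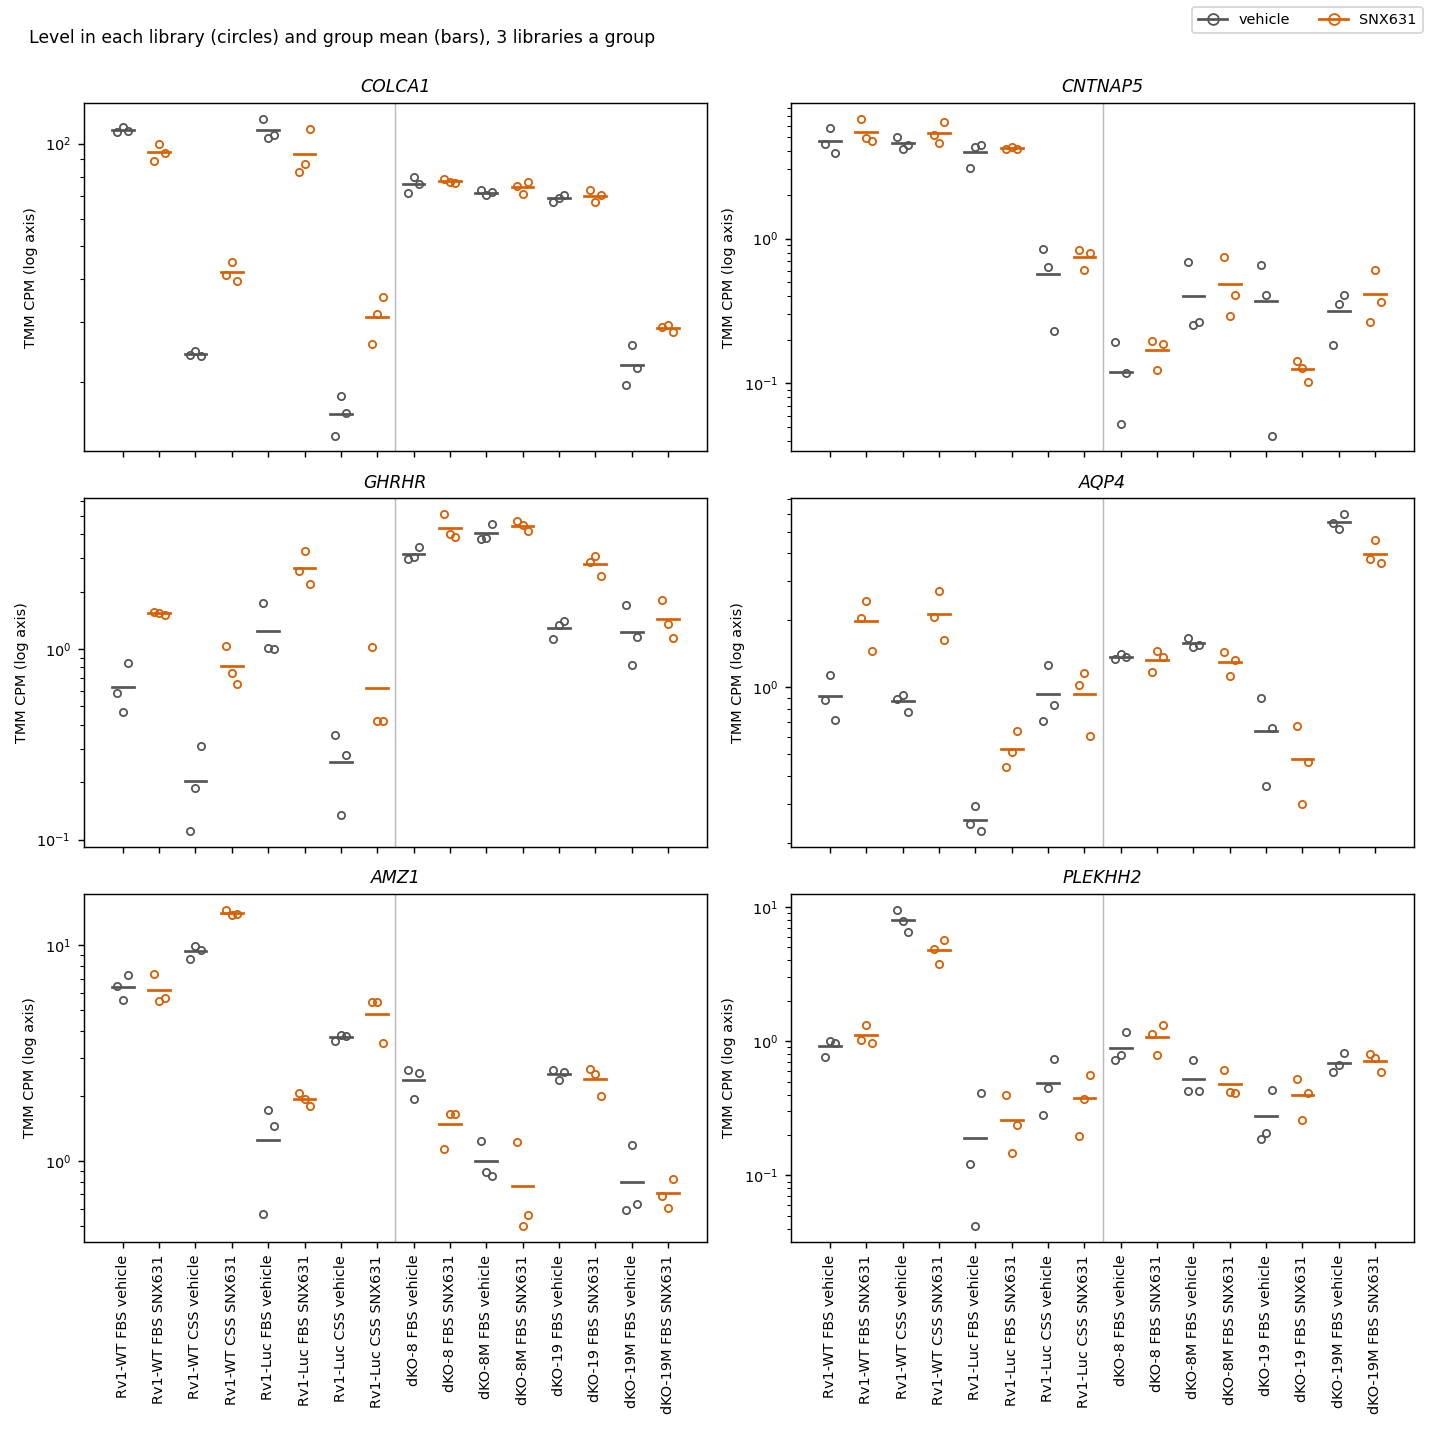
Level of each gene in TMM-scaled CPM (log axis, a separate scale in each panel) in all 48 libraries, with circles for libraries, bars for the means of 3, grey for vehicle and orange for SNX631, and a vertical line between the sublines in FBS or CSS and the dKO lines. COLCA1 ranged from 13.9 to 118 CPM and had its lowest levels in CSS and in dKO-19M.

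COLCA1 (ENSG00000196167.10, chr11:111293389-111305048, minus strand, GRCh38.p14) is annotated as a long noncoding RNA of little-known function at a locus first noted for colorectal cancer risk. In FBS under vehicle its level was 108, 112 and 109 CPM in Rv1-WT and 118, 104 and 106 CPM in Rv1-Luc. In CSS it was 24.0, 24.6 and 23.8 CPM and 13.9, 18.2 and 16.2 CPM, far below every FBS library of the same line. Fewer expressing cells and less RNA per cell cannot be told apart in these bulk samples. Under SNX631 the level in FBS was 88.7, 99.7 and 94.1 CPM in Rv1-WT and 82.5, 87.3 and 111 CPM in Rv1-Luc. In CSS under SNX631 it was 41.1, 45.1 and 39.6 CPM and 25.8, 31.7 and 35.5 CPM, above all 3 CSS vehicle libraries of the line and below all FBS libraries. The group means of dKO-8, dKO-8M and dKO-19 lay between 69.1 and 77.5 CPM under either treatment and overlapped their neighbours among these in the order of levels. In dKO-19M the level was 19.5, 25.7 and 21.9 CPM under vehicle and 28.9, 29.3 and 28.0 CPM under SNX631, in FBS. The vehicle libraries of dKO-19M overlapped those of Rv1-WT in CSS, next to them in the order, and the lowest group was Rv1-Luc in CSS under vehicle at 16.1 ± 2.14 CPM (SD, n = 3). The locus also holds COLCA2, whose span overlaps that of COLCA1 by 6503 bases. Whether the counting used strand is not given, so reads from the shared stretch cannot be told apart. COLCA2 had group means of 0.0563 to 0.597 CPM. On the other flank POU2AF1, which like COLCA2 encodes a coactivator of POU-domain factors, had group means of 0.206 to 2.6 CPM.

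GHRHR (ENSG00000106128.19, chr7:30963953-30979528, plus strand) encodes the class B receptor for growth hormone-releasing hormone, which raises cAMP in pituitary somatotrophs. In FBS under vehicle it stood at 0.588, 0.468 and 0.843 CPM in Rv1-WT and 1.74, 1.01 and 0.998 CPM in Rv1-Luc. In CSS it stood at 0.111, 0.186 and 0.311 CPM (2, 3 and 6 counts) and 0.352, 0.135 and 0.277 CPM (10, 3 and 6 counts), below all FBS vehicle libraries of the line. The log2 fold change of CSS against FBS was -1.60 ± 0.51 SE and -2.24 ± 0.35 SE, with few counts behind the CSS levels. With SNX631 the FBS libraries held 1.57, 1.55 and 1.51 CPM in Rv1-WT and 2.55, 3.25 and 2.19 CPM in Rv1-Luc. In CSS they held 1.04, 0.746 and 0.652 CPM and 1.03, 0.417 and 0.419 CPM, above the CSS vehicle libraries in both lines. The highest levels were in the lines with CDK8. The means were 4.43 ± 0.274 CPM in dKO-8M and 4.32 ± 0.662 CPM in dKO-8 under SNX631 (SD, n = 3), and these groups overlapped. In dKO-19 the libraries held 1.13, 1.33 and 1.40 CPM under vehicle and 2.87, 3.09 and 2.41 CPM under SNX631, without overlap, and in dKO-19M 1.71, 0.828 and 1.15 CPM and 1.81, 1.36 and 1.14 CPM, with overlap. The somatotroph markers GH1 and POU1F1 were at 0 counts in all 48 libraries.

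AQP4 (ENSG00000171885.18, chr18:26852038-26865803, minus strand) encodes the main water channel of astrocyte end-feet. Under vehicle in Rv1-WT the media overlapped, with 0.881, 1.14 and 0.713 CPM in FBS and 0.889, 0.929 and 0.777 CPM in CSS (log2 fold change -0.076 ± 0.31 SE). In Rv1-Luc it was 0.243, 0.293 and 0.227 CPM in FBS, the lowest of the 16 groups, and 0.703, 1.26 and 0.831 CPM in CSS (1.82 ± 0.35 SE). The CSS level of Rv1-Luc overlapped both levels of Rv1-WT, so the 2 lines differed in FBS under vehicle and overlapped in CSS. With SNX631 the libraries held 2.05, 2.43 and 1.46 CPM in FBS and 2.08, 2.72 and 1.63 CPM in CSS in Rv1-WT. In Rv1-Luc they held 0.440, 0.511 and 0.636 CPM in FBS and 1.03, 1.16 and 0.605 CPM in CSS, and these overlapped. The highest levels of all were in dKO-19M, at 5.45, 5.13 and 5.99 CPM under vehicle and 3.78, 4.59 and 3.61 CPM under SNX631, above every library of any other group. In dKO-19 the level was 0.895, 0.359 and 0.654 CPM under vehicle and 0.670, 0.300 and 0.461 CPM under SNX631. Of 5 astrocyte markers 2 averaged over 1 CPM. The sum over all 5 was 83.8 to 95.4 CPM in dKO-19M, 59.2 to 68.1 CPM in dKO-19 and 21.2 to 59.1 CPM in Rv1-WT and Rv1-Luc. It was 40.15 to 43.85 CPM in dKO-8 and 30.5 to 35.9 CPM in dKO-8M, below dKO-19. AQP4 itself had group means of 1.30 to 1.58 CPM in dKO-8 and dKO-8M, above those of dKO-19 (0.477 and 0.636 CPM). The part of these markers in the result was not tested. AQP4-AS1 overlaps AQP4 by 496 bases and had group means of 0.0608 to 1.27 CPM. Since the use of strand is not given, reads of AQP4 and AQP4-AS1 from the shared stretch cannot be told apart.

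CNTNAP5 (ENSG00000155052.15, chr2:124025287-124921219, plus strand) encodes a neurexin-family protein of neural cell adhesion, and under vehicle its level differed between the media in Rv1-Luc but overlapped in Rv1-WT. In Rv1-WT under vehicle it held 4.47, 5.75 and 3.89 CPM in FBS and 5.00, 4.15 and 4.45 CPM in CSS, a log2 fold change of -0.047 ± 0.21 SE. In Rv1-Luc it held 3.07, 4.31 and 4.45 CPM in FBS and 0.844, 0.631 and 0.231 CPM in CSS, a log2 fold change of -2.72 ± 0.28 SE. The Rv1-Luc level in FBS was close to that of Rv1-WT, and the CSS libraries of Rv1-Luc lay below every FBS library of both lines. With SNX631 the libraries of Rv1-WT held 6.69, 4.94 and 4.69 CPM in FBS and 5.20, 4.58 and 6.35 CPM in CSS, which overlap. Those of Rv1-Luc held 4.18, 4.31 and 4.13 CPM in FBS and 0.833, 0.602 and 0.792 CPM in CSS. All 8 dKO groups were low, with means of 0.121 to 0.482 CPM and each group overlapping the next in the order of levels, and dKO-19 under SNX631 held 3, 3 and 2 counts, at or under the floor of 3 counts per library.

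AMZ1 (ENSG00000174945.14, chr7:2679522-2765138, plus strand) encodes archaemetzincin-1, a zinc metallopeptidase. Under vehicle Rv1-WT held 6.46, 5.55 and 7.26 CPM in FBS and 8.67, 9.91 and 9.48 CPM in CSS, a log2 fold change of 0.54 ± 0.16 SE, below 1.5-fold. Rv1-Luc held 0.566, 1.72 and 1.45 CPM in FBS and 3.59, 3.83 and 3.79 CPM in CSS, a log2 fold change of 1.59 ± 0.22 SE, and replicate 1 in FBS, which stood apart, was the lowest. In both lines all CSS libraries lay above all FBS libraries, and all Rv1-Luc libraries lay below all Rv1-WT libraries in the same medium. With SNX631 Rv1-WT held 7.36, 5.53 and 5.71 CPM in FBS and 14.6, 13.7 and 13.9 CPM in CSS, the latter the highest of the 16 groups. Rv1-Luc held 2.07, 1.93 and 1.79 CPM in FBS and 5.44, 5.47 and 3.54 CPM in CSS. Among the dKO lines under vehicle the level was 2.64, 1.93 and 2.55 CPM in dKO-8 and 2.64, 2.36 and 2.57 CPM in dKO-19, against 1.24, 0.888 and 0.855 CPM in dKO-8M and 0.593, 1.18 and 0.632 CPM in dKO-19M, so the lines with an inactive kinase were lower without overlap. AMZ1 overlaps GNA12, which encodes a G protein alpha subunit, by 37034 bases. GNA12 had group means of 69.3 to 92 CPM, far more than AMZ1. Without knowing whether strand was used, reads of the pair from the shared stretch cannot be told apart.

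PLEKHH2 (ENSG00000152527.14, chr2:43637260-43767987, plus strand) encodes a protein with MyTH4 and FERM domains known from kidney podocytes, where it binds actin. Under vehicle Rv1-WT held 0.764, 1.00 and 0.973 CPM in FBS and 9.55, 7.80 and 6.47 CPM in CSS, a log2 fold change of 3.12 ± 0.26 SE. Rv1-Luc held 0.121, 0.0419 and 0.408 CPM in FBS (3, 1 and 9 counts) and 0.281, 0.451 and 0.739 CPM in CSS (8, 10 and 16 counts), a log2 fold change of 1.33 ± 0.50 SE with overlap. This value was 0.86 without FBS vehicle replicate 2 and 2.44 without FBS vehicle replicate 3, the lowest and highest over the alternatives and libraries left out. All 3 CSS libraries of Rv1-WT lay far above the other libraries of these groups. With SNX631 the Rv1-WT libraries held 1.02, 1.33 and 0.970 CPM in FBS and 4.85, 3.73 and 5.65 CPM in CSS, the latter below all 3 CSS vehicle libraries. Rv1-Luc held 0.396, 0.146 and 0.239 CPM in FBS and 0.196, 0.371 and 0.559 CPM in CSS, which overlap. Below the 2 CSS groups of Rv1-WT, each of the remaining groups overlapped the next in the order of levels, from 1.11 ± 0.192 CPM in Rv1-WT in FBS under SNX631 down to 0.191 ± 0.193 CPM in Rv1-Luc in FBS under vehicle (SD, n = 3).

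**Figure D2:**
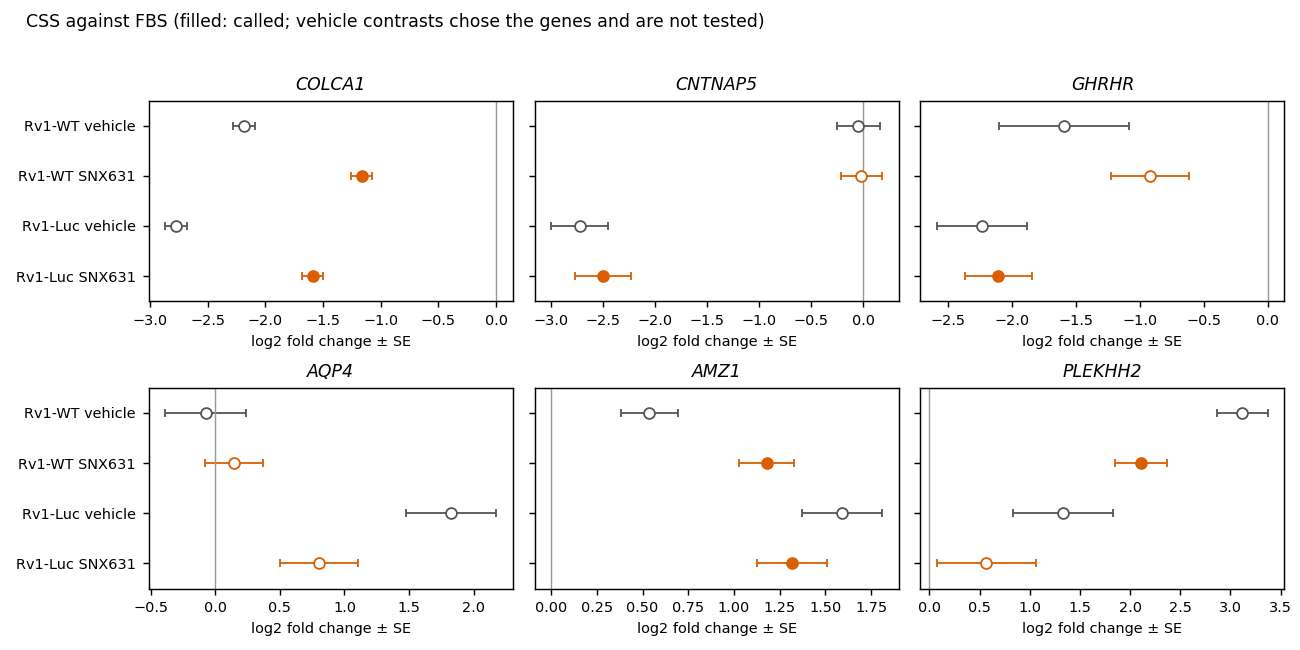
Log2 fold change of CSS against FBS ± SE for each gene in Rv1-WT and Rv1-Luc under vehicle (grey) and SNX631 (orange), with separate x axes for the panels and filled points for calls. The vehicle values chose the genes and are not tested, so they are always open. COLCA1 was lower in CSS in all 4 settings, from -2.77 to -1.16, and CNTNAP5 was near 0 in Rv1-WT and at -2.72 and -2.50 in Rv1-Luc.

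The first test asked whether the difference between media was also found in libraries that had no part in the choice, those treated with SNX631. In Rv1-WT 3 of the 6 genes were called at FDR < 0.01 and fold change > 1.5, against 7.83% of all genes tested, and in Rv1-Luc 4 of the 6, against 1.51%. COLCA1 was lower in CSS in both lines, with log2 fold change -1.16 ± 0.089 SE, edgeR FDR = 5.71e-14 in Rv1-WT and log2 fold change -1.59 ± 0.088 SE, edgeR FDR = 3.63e-17 in Rv1-Luc. AMZ1 was higher in CSS in both lines, with log2 fold change 1.18 ± 0.15 SE, edgeR FDR = 2.25e-09 and log2 fold change 1.32 ± 0.19 SE, edgeR FDR = 6.29e-07. PLEKHH2 was higher in Rv1-WT (log2 fold change 2.11 ± 0.26 SE, edgeR FDR = 8.49e-10), and in Rv1-Luc its value was 0.57 ± 0.49 SE (edgeR FDR = 0.52). CNTNAP5 was lower in Rv1-Luc (log2 fold change -2.50 ± 0.27 SE, edgeR FDR = 1.55e-10), and in Rv1-WT it was at -0.017 ± 0.20 SE (edgeR FDR = 0.96). GHRHR was lower in Rv1-Luc (log2 fold change -2.11 ± 0.26 SE, edgeR FDR = 9.97e-09), and in Rv1-WT it was at -0.93 ± 0.30 SE with an edgeR FDR of 0.0114, just over the limit. AQP4 passed in neither line, at 0.14 ± 0.22 SE in Rv1-WT (edgeR FDR = 0.649) and 0.80 ± 0.30 SE in Rv1-Luc (edgeR FDR = 0.0666), although under vehicle it had the highest rank in Rv1-Luc. The difference between the lines was itself tested, and 1 of the 6 genes was called, against 5.84% of all genes. CNTNAP5 had a difference of Rv1-Luc minus Rv1-WT of -2.48 ± 0.34 SE on the log2 scale (edgeR FDR = 4.52e-08). For COLCA1 this difference was -0.43 ± 0.13 SE (edgeR FDR = 0.00897), short of the fold limit. Without replicate 1 of Rv1-WT in CSS under SNX631 the GHRHR value in Rv1-WT was -1.13 (edgeR FDR = 0.0083) and became a call, and without replicate 1 of Rv1-Luc in CSS under SNX631 the GHRHR difference between lines was -1.74 (edgeR FDR = 0.00291) and became a call. With the 6 SNX631 libraries of Rv1-Luc alone in the fit COLCA1 in Rv1-Luc kept its size, -1.59, at an edgeR FDR of 0.0105, and tested against a 1.5-fold change by glmTreat AMZ1 in Rv1-Luc had an FDR of 0.0107.

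The second comparison was of SNX631 against vehicle in each line and medium. In Rv1-WT and Rv1-Luc it shares its vehicle libraries with the choice of genes, so these calls are not independent of it. A gene chosen for a low vehicle level in CSS is favoured to rise with SNX631 in CSS. One chosen for a high level there is favoured to fall, and in FBS the bias runs the other way. The shares of all genes given below carry no such bias, so they are no fair standard for the counts of these genes. GHRHR rose with SNX631 in several settings and COLCA1 rose in CSS in both lines. In Rv1-WT 2 of the 6 genes were called in FBS, against 2.39% of all genes, and 5 of the 6 in CSS, against 4.23%. In Rv1-Luc 1 of the 6 was called in FBS, against 3.67%, and 1 of the 6 in CSS, against 4.06%. GHRHR was higher in FBS in Rv1-WT (log2 fold change 1.27 ± 0.33 SE, edgeR FDR = 0.00454) and in Rv1-Luc (log2 fold change 1.09 ± 0.22 SE, edgeR FDR = 1.24e-04), and in CSS in Rv1-WT (log2 fold change 1.94 ± 0.47 SE, edgeR FDR = 0.00103). In CSS in Rv1-Luc it was at 1.21 ± 0.42 SE (edgeR FDR = 0.0283). AQP4 was higher in Rv1-WT in FBS (log2 fold change 1.09 ± 0.27 SE, edgeR FDR = 0.00258) and in CSS (log2 fold change 1.31 ± 0.26 SE, edgeR FDR = 5.20e-05), and in Rv1-Luc its values were 1.04 ± 0.39 SE in FBS (edgeR FDR = 0.0485) and 0.021 ± 0.27 SE in CSS (edgeR FDR = 0.972). COLCA1 was higher in CSS in Rv1-WT (log2 fold change 0.80 ± 0.10 SE, edgeR FDR = 6.79e-08) and in Rv1-Luc (log2 fold change 0.96 ± 0.11 SE, edgeR FDR = 2.55e-09). In FBS it was at -0.22 ± 0.083 SE in Rv1-WT (edgeR FDR = 0.0679) and -0.23 ± 0.079 SE in Rv1-Luc (edgeR FDR = 0.0359). In CSS in Rv1-WT, AMZ1 was higher (log2 fold change 0.59 ± 0.14 SE, edgeR FDR = 7.82e-04) and PLEKHH2 lower (log2 fold change -0.74 ± 0.19 SE, edgeR FDR = 0.00217). The CNTNAP5 values ran from 0.10 to 0.32 on the log2 scale, with edgeR FDRs of 0.416 to 0.793.

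Several of these calls in Rv1-WT were lost when 1 library was left out. In FBS, GHRHR was no longer called without vehicle replicate 1 (1.22 with FDR = 0.0269), vehicle replicate 2 (1.11 with FDR = 0.0367), or SNX631 replicate 1, 2 or 3 (FDR = 0.0166, 0.0122 and 0.0151). AQP4 in FBS was no longer called without vehicle replicate 1 or 3 (edgeR FDR = 0.0157 and 0.0283) or SNX631 replicate 1 or 2 (FDR = 0.0145 and 0.0273). In CSS, leaving out vehicle replicate 1 ended the calls of GHRHR (1.65 with FDR = 0.0141), AMZ1 (0.54 with FDR = 0.00926, below 1.5-fold) and PLEKHH2 (-0.58 with FDR = 0.0463). Leaving out SNX631 replicate 1 in CSS ended those of GHRHR (1.74 with FDR = 0.0109) and AMZ1 (0.57 with FDR = 0.00514), and leaving out SNX631 replicate 2 that of PLEKHH2 (-0.59 with FDR = 0.035). The COLCA1 and AQP4 calls in CSS in Rv1-WT and the calls in Rv1-Luc held under every such fit, and GHRHR in Rv1-Luc in FBS was at 1.41 (edgeR FDR = 2.01e-05) without vehicle replicate 1, the library that stood apart. With all libraries thinned to the size of the smallest, the calls of GHRHR and AQP4 in Rv1-WT in FBS were lost (edgeR FDR = 0.017 and 0.0235), as were those of GHRHR, AMZ1 and PLEKHH2 in CSS (0.015, 0.0277 and 0.046) and GHRHR in Rv1-Luc in FBS (0.0413). AMZ1 in CSS fell below 1.5-fold with no filter on low counts (0.58) and with scaling by library size only (0.57). Tested against a 1.5-fold change by glmTreat, the COLCA1 call in Rv1-Luc in CSS was the only one of the 9 to hold, and COLCA1 and AQP4 in Rv1-WT in CSS had FDRs of 0.248 and 0.0458.

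**Figure D3:**
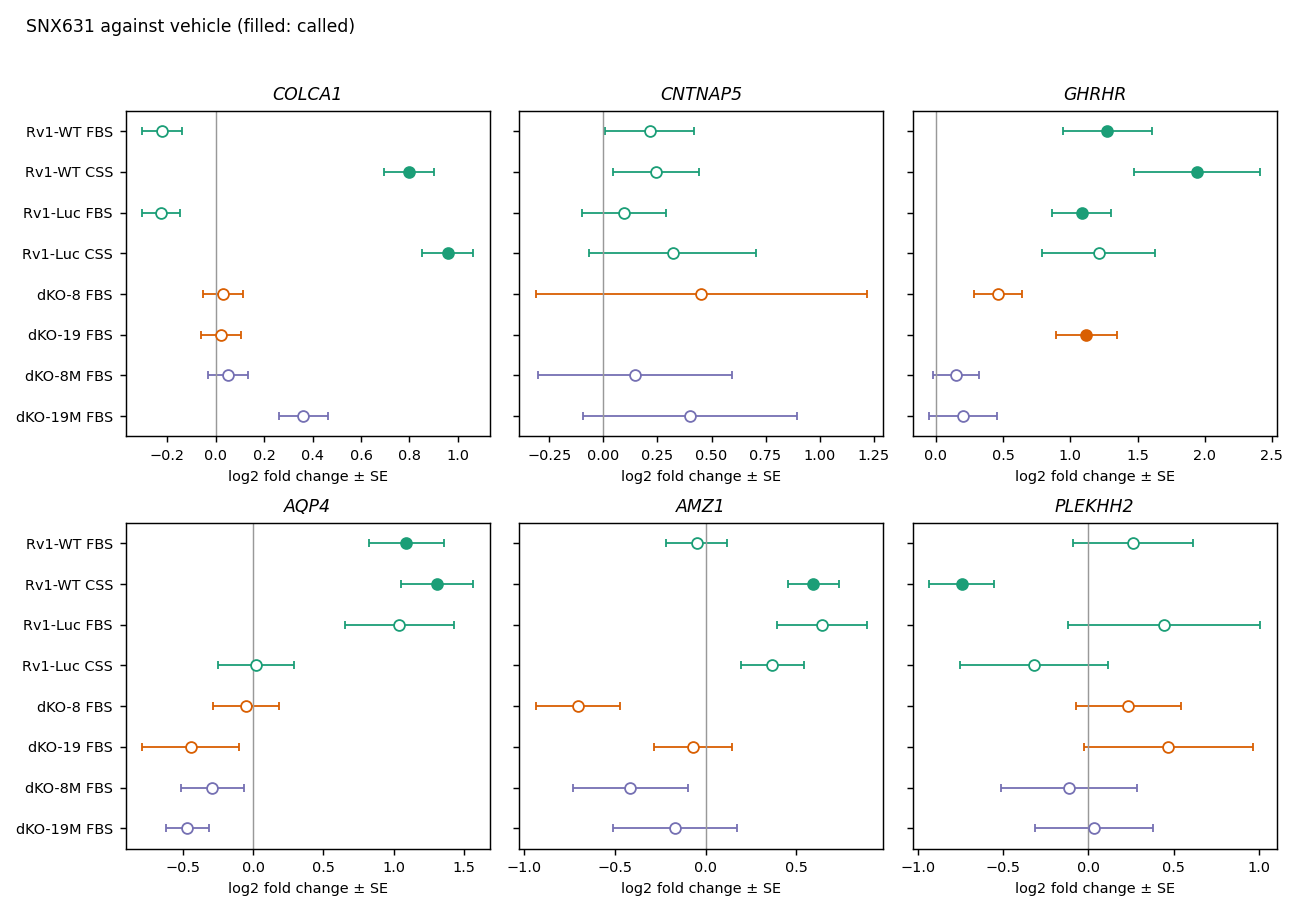
Log2 fold change of SNX631 against vehicle ± SE for each gene in 8 settings, with green for Rv1-WT and Rv1-Luc, orange for the dKO lines with an active kinase and violet for those with an inactive one, separate x axes for the panels and filled points for calls. GHRHR lay above 0 in every setting and farthest in Rv1-WT in CSS, at 1.94, and CNTNAP5 in dKO-19 is left out because its SNX631 libraries held at most 3 counts.

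In the lines that had no part in the choice, the 1 call for SNX631 among the 4 dKO lines was that of GHRHR in dKO-19. In dKO-19 1 of the 6 genes was called, against 3.41% of all genes, with GHRHR at log2 fold change 1.12 ± 0.23 SE, edgeR FDR = 1.27e-04. That call was lost with the libraries thinned to the smallest (0.75 with FDR = 0.112) and by glmTreat (FDR = 0.151). In dKO-8, where 1.71% of genes were called, edgeR called 0 of the 6, with 2 of the 6 at an unadjusted p under 0.05 and 0 of the 6 called by DESeq2. GHRHR was at 0.46 ± 0.18 SE (edgeR FDR = 0.0745) and AMZ1 at -0.70 ± 0.23 SE (edgeR FDR = 0.0329). With only the libraries compared in the fit AMZ1 became a call (-0.70 with FDR = 0.00492), and the responses of dKO-8 and dKO-19 were not tested against each other. In dKO-8M, where 0.015% of genes were called, edgeR and DESeq2 called 0 of the 6, and 0 had an unadjusted p under 0.05. In dKO-19M, where 0.09% were called, both tools called 0 of the 6 and 2 had an unadjusted p under 0.05, COLCA1 at 0.36 ± 0.10 SE (edgeR FDR = 0.0423) and AQP4 at -0.47 ± 0.16 SE (edgeR FDR = 0.0942). Without vehicle replicate 1, which stood apart, these were 0.27 (edgeR FDR = 0.309) for COLCA1 and -0.48 (edgeR FDR = 0.203) for AQP4. The GHRHR effect in dKO-19 exceeded that in dKO-19M by 0.92 ± 0.34 SE on the log2 scale, which did not pass (edgeR FDR = 0.0784), so a difference in response between the active and inactive form was not shown. Without dKO-19M vehicle replicate 1 it was 0.60 (edgeR FDR = 0.343). By edgeR 0 of the 6 genes were called for a difference in response between dKO-19 and dKO-19M, against 2.07% of genes, with 3 at an unadjusted p under 0.05, and 0 between dKO-8 and dKO-8M, against 0.905%, with 0 under 0.05. DESeq2 called 0 in both.

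The effect of SNX631 was also set against itself between the media, CSS minus FBS. The vehicle difference that chose the genes is a term of this value, so a gene chosen for being low in CSS under vehicle is favoured to have a positive one, and no test is given. For COLCA1 the difference of the effect was 1.02 ± 0.13 SE on the log2 scale in Rv1-WT and 1.18 ± 0.13 SE in Rv1-Luc, where 0.295% and 0.08% of all genes were called. Put in levels, CSS libraries were at 24.1 ± 0.401 CPM under vehicle and 41.9 ± 2.83 CPM under SNX631 in Rv1-WT (SD, n = 3), and from 13.9 to 18.2 CPM under vehicle and from 25.8 to 35.5 CPM under SNX631 in the 3 libraries each of Rv1-Luc. Without vehicle replicate 1 of Rv1-Luc in FBS the value in Rv1-Luc was 1.12.

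**Figure D4:**
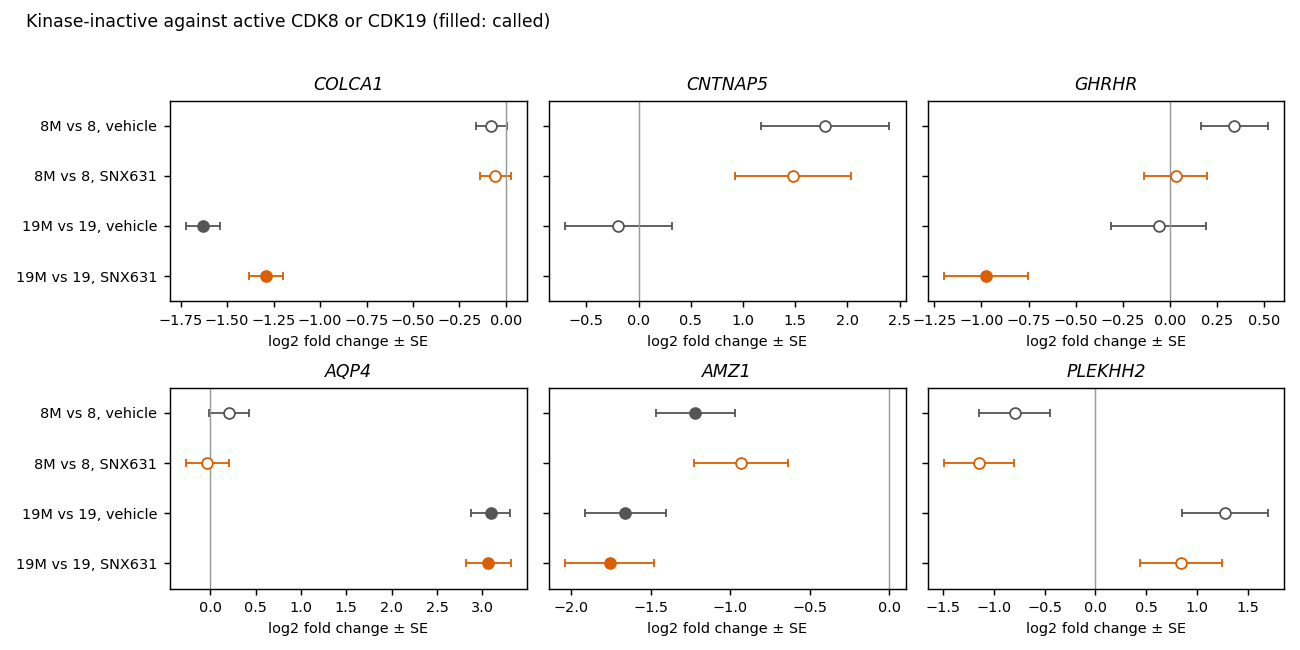
Log2 fold change ± SE of dKO-8M against dKO-8 and of dKO-19M against dKO-19, under vehicle (grey) and SNX631 (orange), with separate x axes for the panels and filled points for calls. AQP4 was higher in dKO-19M under both treatments, by 3.09 and 3.07, and CNTNAP5 is left out for dKO-19 under SNX631, where libraries held at most 3 counts.

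The third comparison was of lines with an inactive against an active kinase, none of which entered the choice. Between dKO-19M and dKO-19 under vehicle 3 of the 6 genes were called, against 7.6% of all genes, and under SNX631 4 of the 6, against 7.18%. COLCA1 was lower in dKO-19M, with log2 fold change -1.63 ± 0.092 SE, edgeR FDR = 7.46e-18 under vehicle and log2 fold change -1.29 ± 0.092 SE, edgeR FDR = 1.05e-14 under SNX631. AMZ1 was also lower (log2 fold change -1.66 ± 0.26 SE, edgeR FDR = 3.73e-07 under vehicle, and -1.76 ± 0.28 SE with FDR = 9.53e-07 under SNX631). AQP4 was higher by a log2 fold change of 3.09 ± 0.21 SE under vehicle (edgeR FDR = 2.29e-18) and 3.07 ± 0.24 SE under SNX631 (edgeR FDR = 6.31e-16), with all 3 dKO-19M libraries above all dKO-19 libraries in both. GHRHR was at -0.06 ± 0.25 SE under vehicle (edgeR FDR = 0.892) and lower in dKO-19M under SNX631 (log2 fold change -0.98 ± 0.22 SE, edgeR FDR = 4.36e-04). The latter call was lost with the libraries thinned to the smallest (-0.57 with FDR = 0.193) and by glmTreat (FDR = 0.233). PLEKHH2 was at 1.28 ± 0.42 SE under vehicle with an edgeR FDR of 0.0145, and it became a call (1.79 with FDR = 0.00738) without dKO-19 vehicle replicate 3. Without dKO-19M vehicle replicate 1, which stood apart, the vehicle values were -1.55 (edgeR FDR = 1.62e-14) for COLCA1, 3.09 (edgeR FDR = 9.57e-18) for AQP4 and -1.49 (edgeR FDR = 1.34e-05) for AMZ1. Beside AQP4, the overlapping AQP4-AS1 was also higher in dKO-19M under vehicle (1.00 against 0.413 CPM, log2 fold change 1.28 ± 0.34 SE, edgeR FDR = 0.0024), as was its neighbour CHST9 (2.98 against 1.79 CPM, 0.75 ± 0.20 SE, FDR = 0.00282). Under SNX631 the AQP4-AS1 libraries of these lines overlapped (0.520 against 0.424 CPM). KCTD1, the nearest coding gene on the other side of AQP4, was called in 0 of the 11 comparisons examined for neighbours.

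Between dKO-8M and dKO-8 the differences of COLCA1 and AQP4 seen in the CDK19 lines were not found at these limits, though the pairs of lines were not tested against each other. Under vehicle 1 of the 6 was called, against 7.02% of all genes. AMZ1 was lower in dKO-8M (log2 fold change -1.22 ± 0.25 SE, edgeR FDR = 7.91e-05), the same direction as in dKO-19M, with an FDR of 0.0472 by glmTreat. Under SNX631 edgeR called 0 of the 6, against 5.05% of all genes, with 3 at an unadjusted p under 0.05, and DESeq2 called 2 of the 6. These were AMZ1 at -0.93 ± 0.30 SE (edgeR FDR = 0.0148) and PLEKHH2 at -1.15 ± 0.35 SE (edgeR FDR = 0.0105). AMZ1 became a call by edgeR without dKO-8M replicate 1 (-1.47 with FDR = 0.00118) or dKO-8 replicate 1 (-1.10 with FDR = 0.00799), and PLEKHH2 without dKO-8 replicate 2 (-1.33 with FDR = 0.006), all under SNX631. GHRHR was at 0.34 ± 0.18 SE under vehicle (edgeR FDR = 0.149) and 0.03 ± 0.17 SE under SNX631 (edgeR FDR = 0.937). COLCA1 was at -0.078 ± 0.082 SE and -0.057 ± 0.082 SE (edgeR FDR = 0.529 and 0.7), and AQP4 at 0.21 ± 0.22 SE and -0.034 ± 0.23 SE (FDR = 0.54 and 0.951). CNTNAP5 was at 1.785 under vehicle (edgeR FDR = 0.0214) and 1.478 under SNX631 (FDR = 0.0468), and under vehicle it became a call with no filter on low counts (FDR = 0.00679). Its dKO-8 vehicle libraries held only 1 to 4 counts. Between dKO-19M and dKO-19 it was not called under either treatment.

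Between lines with an active kinase, dKO-19 against dKO-8 under vehicle, 3 of the 6 genes were called, against 6.51% of all genes, and all 3 were lower in dKO-19, against 3.4% of all genes. They were GHRHR (log2 fold change -1.29 ± 0.22 SE, edgeR FDR = 4.03e-06), AQP4 (log2 fold change -1.09 ± 0.27 SE, edgeR FDR = 0.00125) and PLEKHH2 (log2 fold change -1.67 ± 0.41 SE, edgeR FDR = 9.93e-04). AQP4 was no longer called without dKO-19 replicate 2 (-0.82 with FDR = 0.025), and PLEKHH2 without dKO-19 replicate 1 (-1.44 with FDR = 0.0122) or dKO-8 replicate 3 (-1.39 with FDR = 0.0225), while CNTNAP5 became a call without dKO-19 replicate 3 (2.10 with FDR = 0.00661). AQP4 was also lost with the libraries thinned to the smallest (-1.14 with FDR = 0.0218), and by glmTreat the FDRs were 0.0116 for GHRHR, 0.243 for AQP4 and 0.0494 for PLEKHH2.

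The sublines themselves differed in most of these genes, as they did in many others. Under SNX631, Rv1-Luc against Rv1-WT gave 4 of the 6 called in FBS, against 18.3% of all genes, and 4 of the 6 in CSS, against 28.5%. AQP4, AMZ1 and PLEKHH2 were lower in Rv1-Luc in both media, from -1.20 ± 0.24 SE for AQP4 in CSS to -3.63 ± 0.30 SE for PLEKHH2 in CSS (edgeR FDR = 1.86e-05 and 3.25e-16). CNTNAP5 was lower in Rv1-Luc in CSS (log2 fold change -2.85 ± 0.27 SE, edgeR FDR = 4.01e-14), and in FBS it was at -0.37 ± 0.20 SE (edgeR FDR = 0.107). GHRHR was higher in Rv1-Luc in FBS (log2 fold change 0.79 ± 0.23 SE, edgeR FDR = 0.00295). That call was lost without Rv1-Luc replicate 2 (0.61 with FDR = 0.0405) or Rv1-WT replicate 1 (0.81 with FDR = 0.0108) or 3 (0.78 with FDR = 0.0155), and by glmTreat (FDR = 0.353). Under vehicle in FBS, in libraries that entered the choice, 4 of the 6 were called, against 17.8%. A gene chosen for a rise in CSS in Rv1-Luc, such as AQP4 or AMZ1, is favoured to be low there in FBS. One chosen for a fall, such as GHRHR, is favoured to be high. For PLEKHH2, chosen for a rise in Rv1-WT, the bias runs the other way. The share of all genes carries no such bias, so it is no fair standard for this count. AQP4 (log2 fold change -1.81 ± 0.38 SE, edgeR FDR = 5.79e-05), AMZ1 (log2 fold change -2.38 ± 0.21 SE, edgeR FDR = 1.44e-14) and PLEKHH2 (log2 fold change -2.27 ± 0.47 SE, edgeR FDR = 4.49e-05) were lower in Rv1-Luc and GHRHR higher (log2 fold change 0.98 ± 0.33 SE, edgeR FDR = 0.0093). The GHRHR call was lost without Rv1-Luc replicate 1, which stood apart (0.66 with FDR = 0.133), and without Rv1-WT replicate 1 (0.93 with FDR = 0.0396) or 2 (0.82 with FDR = 0.0586). It was also lost with only the libraries compared in the fit (1.01 with FDR = 0.0242) and by glmTreat (FDR = 0.232). Without Rv1-Luc replicate 1 the other 3 values were -1.77 (edgeR FDR = 5.33e-04) for AQP4, -2.02 (edgeR FDR = 3.30e-12) for AMZ1 and -2.03 (edgeR FDR = 8.40e-04) for PLEKHH2. COLCA1 overlapped between the sublines in FBS, at -0.0035 ± 0.08 SE under vehicle (edgeR FDR = 0.976). In CSS under SNX631 COLCA1 was lower in Rv1-Luc without overlap (log2 fold change -0.43, edgeR FDR = 1.51e-04), short of the fold limit.

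Relatives of the 6 genes were examined beside them. Of 26 measured androgen-induced genes, such as SLC45A3 and FKBP5, 8 were called lower and 1 higher in CSS under vehicle in Rv1-WT (lower 4.78% of all genes), and 10 were lower in Rv1-Luc (0.81%), with higher calls in 6.09% and 0.68% of all genes and median log2 fold changes of -0.40 and -0.55 against 0.0071 and 0.01 for all genes. Under SNX631 the counts were 2 lower and 1 higher in Rv1-WT (lower 2.97% and higher 4.86% of all genes) and 8 lower in Rv1-Luc (0.92%), with medians of -0.13 and -0.22. SLC45A3, a solute carrier of prostate epithelium, had vehicle log2 fold changes in CSS of -1.43 (Rv1-WT) and -1.25 (Rv1-Luc) (edgeR FDR = 4.50e-21 and 9.13e-22). Of the 5 other aquaporins tested, AQP3, which also passes glycerol, was higher in Rv1-Luc in CSS under vehicle (28.6 against 18.6 CPM, edgeR FDR = 2.29e-06) and in Rv1-WT in CSS under SNX631 (73.8 against 45.5 CPM, FDR = 6.40e-10), and under vehicle dKO-19M had less of it than dKO-19 (8.56 against 18.9 CPM, FDR = 1.82e-12), opposite to AQP4. Of 12 contactins and neurexin relatives tested, 2 were called higher in CSS in each subline under vehicle and 4 in Rv1-WT under SNX631, while edgeR called 0 higher and 0 lower in Rv1-Luc under SNX631, where their median log2 fold change was 0.0744. CNTNAP3 was higher in both sublines under vehicle, at 0.69 in Rv1-WT and 0.80 in Rv1-Luc (FDR = 0.00118 and 0.00428), where CNTNAP5 was near 0 or lower. Of 13 genes of the somatotropic axis and class B receptors, SSTR1, a somatostatin receptor, was higher with SNX631 in Rv1-WT and Rv1-Luc in both media, by 1.08 to 1.35 on the log2 scale (largest edgeR FDR 6.29e-06). MYO7A, a MyTH4-FERM myosin, was higher in CSS in Rv1-WT under vehicle (0.61, FDR = 7.81e-05) and SNX631 (0.69, FDR = 4.24e-05). AMZ2, the other archaelysin, was not called in either subline, with vehicle values of 0.29 (Rv1-WT) and -0.079 (Rv1-Luc).

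The 6 genes also differed from each other in pattern. Over the 16 group means of log2 CPM, Pearson's r between them ran from -0.626, for GHRHR and AMZ1, to 0.624, for COLCA1 and GHRHR. The groups share lines and media, so no p is given. By the same measure, among 14055 genes with a mean of at least 1 CPM, the pattern most like COLCA1 was that of IMPA1 (r = 0.872), followed by GFM2 (0.82) and UGGT1 (0.813). GHRHR was most like POU2AF1 (0.961), TNS4 (0.949) and ARHGAP20 (0.913), where POU2AF1 is the coding gene that flanks COLCA1 on the side of higher coordinates. AMZ1 was most like AQP3 (0.952), ATXN1-AS1 (0.94) and CEMIP (0.939), and CNTNAP5 was most like PIGH (0.943), EMP1 (0.936) and RAB6D (0.933). PLEKHH2 was most like PYGB (0.957), DNAAF4-CCPG1 (0.953) and PPIL6 (0.952), and AQP4 was most like LRMDA (0.876), LITAF (0.87) and TAP1 (0.861). POU2AF1, which encodes a B-cell coactivator, was lower in CSS in Rv1-Luc under SNX631 (0.365 against 1.74 CPM, log2 fold change -2.26 ± 0.31 SE, edgeR FDR = 1.05e-07) and higher with SNX631 in FBS in Rv1-WT (1.72, FDR = 0.00178) and Rv1-Luc (1.52, FDR = 1.13e-05), as was GHRHR. Both genes were also called higher with SNX631 in dKO-19 (POU2AF1 at 0.99, edgeR FDR = 0.0033). POU2AF1 but not GHRHR was called higher with SNX631 in dKO-8 (1.11, FDR = 4.07e-04). The same held for dKO-8M against dKO-8 under vehicle (0.96, FDR = 0.00106).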

How the data were processed

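RNA was extracted with RNeasy and sequenced from NEBNext Ultra II Directional libraries of 48 samples. The table deposited by the authors holds expected counts per gene (81.6% of values were whole), not normalized. The submitters' processing notes name cutadapt 2.8, STAR 2.7.2b, Subread 2.0.3 and the builds GRCh38.p13 and GRCm39, with no role given, and strand use in counting is not given in the sources used here. Values were rounded to whole counts and filtered with filterByExpr (count minimum 10, total 15). After TMM scaling, edgeR 4.0.16 in R 4.3.3 fitted 16 group means over all 48 libraries (32 residual degrees of freedom), with its quasi-likelihood test and Benjamini-Hochberg adjustment over all 20009 genes. Called means FDR < 0.01 and fold change > 1.5. Levels are TMM-scaled CPM and SE is the log2 fold change divided by the square root of F. Replicates are biological per the labels, and whether they came from separate cultures is not given, so p-values measure the spread between these samples.

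The members and lists were chosen with earlier results of these data known. Named genes are the 6 members, their neighbours, the 3 genes most like each, and called genes of the lists. On simulated data for CSS against FBS in Rv1-Luc under SNX631, over 18905 genes, 65.5% of changes of 1 and 94.7% of changes of 2 on the log2 scale were recovered. The simulation gave every gene the same set spread, not the one fitted to these data, and held no library that stood apart. Its changed genes were drawn at random from those that passed the filter, so the figures do not give the sensitivity at the low levels of most members. Alternatives used edgeR with other settings and the Wald test of DESeq2 1.42.0, and their effects are given in the closing section. RefSeq promoters and positions are on GRCh38.p14, and all 6 members matched. Overlaps between genes are of whole annotated spans, introns included, and shared exons were not checked. Results for some genes are not reported here.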

Additional observations from a re-analysis of the deposited data

Results flagged for a closer look

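The CSS effect on CNTNAP5 under SNX631 was lower in Rv1-Luc than in Rv1-WT by -2.48 on the log2 scale, a difference between groups found by an interaction test in edgeR.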

How the results depend on the processing

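No member call changed direction under any alternative run. The 43 member calls counted here include 2 for the difference of SNX631 effects between media. That difference shares a term with the choice of genes, so these 2 are not given as results. Size factors of the DESeq2 kind within edgeR, and the DESeq2 Wald test, kept 43. Thinning to the smallest library kept 34, and glmTreat against 1.5-fold kept 24. By glmTreat the count was 0 for dKO-19 against dKO-8 and for dKO-8M against dKO-8 under vehicle. It was also 0 for SNX631 in dKO-19, in Rv1-Luc in FBS and in Rv1-WT in CSS and FBS. After thinning it was 0 for SNX631 in dKO-19, in Rv1-Luc in FBS and in Rv1-WT in FBS, and 2 for Rv1-WT in CSS. At FDR < 0.05 with no fold limit it was 4 for the difference between sublines, 3 for dKO-8M against dKO-8 under SNX631 and 2 under vehicle, 1 for SNX631 in dKO-8 and dKO-19M, and 2 and 3 for SNX631 in Rv1-Luc in CSS and FBS. For dKO-8M against dKO-8 under SNX631 it was 2 by DESeq2, with no filter and with only the libraries compared, and 1 by library size. With no filter it was 2 under vehicle. With only the libraries compared it was 1 for SNX631 in dKO-8. The cause was not tested. Leaving out 1 library gave 0 to 1 for SNX631 in Rv1-WT in FBS, 2 to 5 in CSS, 0 to 1 for dKO-8M against dKO-8 under SNX631 and 1 to 2 for the difference between sublines. Replicates share only a number: in 0 of 20 pairwise comparisons did every pair correlate above 0.1. With the number as a replicate block, 43 of 43 calls were kept and 44 made. Levels near 3 counts, as for CNTNAP5 in the dKO lines, limit what could be detected.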
